A study of Mus musculus with 6 samples.

Results

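The Dlk1-Dio3 region of mouse chromosome 12 holds one of the largest miRNA clusters of placental mammals. Its members were taken here as the mouse miRNAs on the array with a probe mapped, in the deposited files, to a 400 kb window around the cluster. This gave 79 of 1881 miRNAs, on 199 probes, from chr12:110818455-110986159 (mm9). The RNA came from left ventricle of male C57BL/6 mice that received vehicle (control) or sunitinib, with 3 samples in each group. Sunitinib is a multi-target receptor tyrosine kinase inhibitor used against tumours, and the study's title concerns the cardiac dysfunction it can induce. No transgene or mutation is named in the labels, and the labels leave out age, dose and length of treatment. From each sample 200 ng of total RNA was labelled with Cy3 and hybridised to its own Agilent array. The labels do not say that each sample came from a separate animal, so p-values reflect the variation among samples as labelled, part of which may be technical.

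The region is imprinted. The protein-coding genes Dlk1, Rtl1 and Dio3 are expressed from the paternal chromosome, and the noncoding transcripts Meg3, antisense Rtl1, Rian and Mirg from the maternal one. The miRNAs are cut from these maternal transcripts and are known for their expression in the embryo, the placenta and the brain, with low levels in most adult tissues. A miRNA recognises its target messenger RNAs mainly through its seed, bases 2 to 8 from the 5′ end, so the seed groups miRNAs by their likely targets.

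By the miRNAs' names, 2 of the 79 were listed on the Meg3 side of the cluster and 14 with the transcript antisense to Rtl1. Another 6 were listed with Rian and 56 with Mirg, and miR-1193-3p is on none of these lists. By RefSeq gene positions (GRCm38) the groups differ, with 16 members within Rtl1, 6 within Rian and 13 within Mirg. A further 41 lay within none of these or Meg3. The first 22 members span 38.1 kb, a gap of 90.7 kb follows, and the other 57 span 38.9 kb. Probes of miR-3071-5p and miR-3071-3p map to the minus strand, and all other members to the plus strand. These 2 are on the antisense Rtl1 list by name only, as they lie on the strand opposite to its other members. The miR-3070 arms also map to positions outside the window, so their signal cannot be given to 1 locus.

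The scanner software called 8 of the 79 miRNAs detected on every array (10.1%), against 288 to 309 of all 1881 miRNAs per array (15.3% to 16.4%). Over the 6 arrays 9 members were detected at least once, and 70 on none. The 9 are shown because the results on detected members below concern them. Their mature sequences are those of RefSeq (GRCm38.p6), with the seed in capitals:

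miR-127-3p: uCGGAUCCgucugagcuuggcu
miR-154-5p: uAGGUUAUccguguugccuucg
miR-299b-5p: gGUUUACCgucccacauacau
miR-300-3p: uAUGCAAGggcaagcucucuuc
miR-329-3p: aACACACCcagcuaaccuuuuu
miR-370-3p: gCCUGCUGggguggaaccuggu
miR-379-5p: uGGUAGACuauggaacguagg
miR-494-3p: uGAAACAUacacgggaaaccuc
miR-3072-5p: aGGGACCCcgagggagggcagg

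No 2 of these 9 share a seed. RefSeq sequences were matched for 76 of the 79 members, and these hold 71 distinct seeds. Only 5 seeds occurred in more than 1 member, each in 2, and none of those 10 members was detected. For 12 seeds the array also held a miRNA that is not among the 79, in some cases one with a cluster name but no position in the window. Among detected members this held for miR-379-5p, whose seed is also that of miR-1193-5p, and for miR-329-3p. The seed ACACACC of miR-329-3p is also that of miR-362-3p, from another cluster.

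Some members differ by a few bases only, which matters both for targets and for probes. These 4 are shown for their closeness to a detected or a named member:

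miR-381-3p: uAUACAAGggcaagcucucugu
miR-411-5p: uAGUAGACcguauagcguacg
miR-376a-3p: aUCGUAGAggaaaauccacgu
miR-376b-3p: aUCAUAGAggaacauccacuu

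Counting from the 5′ end, miR-300-3p and miR-381-3p differ by G4A in the seed and by U21G and C22U outside it. The seeds of miR-379-5p and miR-411-5p differ by G2A, and those of miR-376b-3p and miR-376a-3p by A4G. The probes of the detected miRNAs paired up to the 3′ end, starting from base 2 to base 11, so some also covered part or all of the seed. For miR-300-3p the probes paired with bases 5 or 6 to 22, a stretch in which miR-381-3p has 2 of its 3 substitutions, so hybridisation of one miRNA to the other's probe cannot be told apart from these data.

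Each miRNA is 1 arm of a hairpin precursor. By their names the 79 miRNAs come from 43 hairpins, 36 of them with both arms mapped to the window. In 8 of these 36 hairpins 1 arm was detected, and in 0 both. Of the 9 detected miRNAs 5 are 3p arms and 4 are 5p arms. The partner of miR-299b-5p by name, miR-299b-3p, was on the array without a mapped position and was not detected. miR-299a-3p, also undetected, maps beside miR-299b-5p on the same strand and was counted as another hairpin by its name. The undetected partner arms of the other 8 had mean log2 signals of 0.14 to 0.81. Probes differ in how well they bind, so a signal is not compared with that of another probe as an amount.

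**Figure D1:**
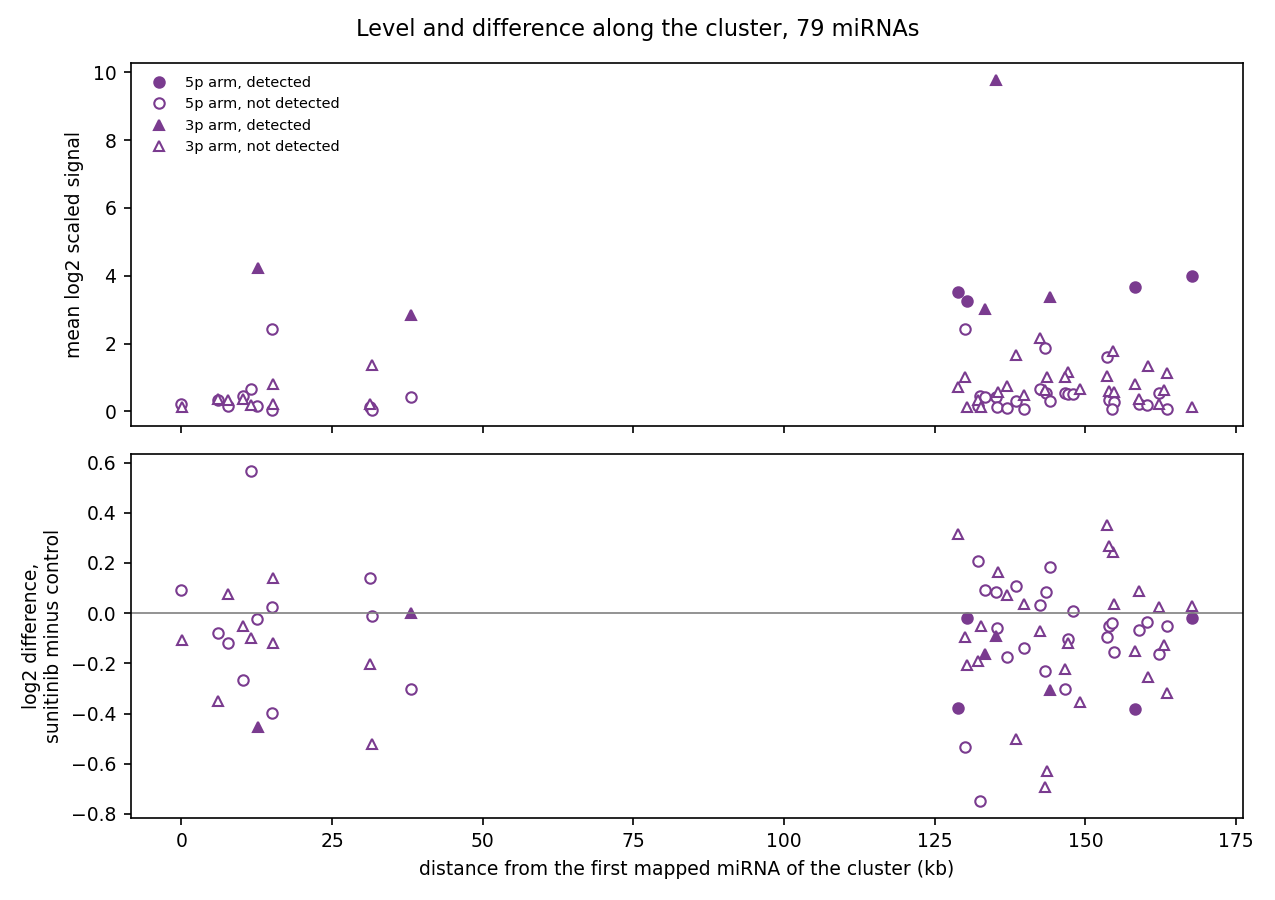
Top, mean log2 scaled signal of each miRNA's brightest probe over the 6 arrays, and bottom, the log2 difference between groups, against distance from the first mapped miRNA (kb), for all 79 miRNAs. Filled symbols are the 9 detected miRNAs, of which 2 lie before the 90.7 kb gap and 7 after it, and the 70 open symbols have a median signal of 0.435.

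Which miRNAs were detected hardly differed between arrays. miR-127-3p, miR-154-5p, miR-299b-5p, miR-300-3p, miR-379-5p, miR-494-3p and miR-3072-5p were detected on all 6. The eighth was miR-329-3p on control 1 and 2 and on sunitinib 1 and 2. On control 3 and sunitinib 3 it was miR-370-3p. The number detected was therefore 8 in each sample of both groups, with a difference of 0 (exact two-sided permutation test, p = 1). With 3 samples against 3 this test cannot give a p below 0.1.

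A stricter flag of the software, well above background, gave another count. It held for 5, 6 and 5 members in control 1 to 3 and for 4, 3 and 3 in sunitinib 1 to 3. The means were 5.33 ± 0.577 (SD, n = 3) and 3.33 ± 0.577 (SD, n = 3), and the groups did not overlap (exact two-sided permutation test, p = 0.1, the smallest this design allows). The gap came from miR-154-5p (flagged on 3 control arrays against 0 sunitinib arrays), miR-379-5p (3 against 1) and miR-300-3p (1 against 0). The count is therefore not separate from the differences of these members given below. Over the whole array the brightest probe of 241, 252 and 237 miRNAs was flagged in control (12.6% to 13.4%) and of 240, 234 and 242 in sunitinib (12.4% to 12.9%), so those groups overlapped. The dimmest signal of a flagged probe differed between arrays, from 3.18 to 3.62 on the log2 scale. It is not a sharp limit, as miR-154-5p at 3.74 on sunitinib 2 was not flagged. With the highest of these levels applied to all arrays, an alternative chosen after seeing the data, the counts were 5, 6 and 5 against 3, 4 and 3 (p = 0.1 in the same exact permutation test).

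No cluster miRNA passed the test between sunitinib and control. The largest differences among the tested members were those of miR-127-3p, miR-154-5p and miR-379-5p, -0.45 to -0.38 on the log2 scale. For this test, the log2 scaled signal of the brightest probe was compared with limma. A miRNA entered where either group had this probe well above background on its 3 arrays. That left 237 miRNAs, 5 of them members of the cluster. None of the 5 passed at an adjusted p of 0.05, whereas 1.69% of the 237 were called lower and 1.69% higher, 3.38% in all. At an unadjusted p under 0.05, 3 of the 5 were lower and 0 higher, with backgrounds of 8.44% and 10.5%. All 5 differences were negative, as were 47.3% of those of the 237. Since miR-154-5p and miR-379-5p entered the test through their control arrays alone, the filter favoured a low value in sunitinib, and these counts are no evidence about the cluster.

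miR-127-3p lies within the transcript antisense to Rtl1, and is known to pair fully with the Rtl1 messenger and guide its cleavage. Its probes map to chr12:110831103-110831119 (mm9). Its log2 scaled signal was 4.42, 4.61 and 4.33 in control and 4.05, 4.12 and 3.82 in sunitinib. All sunitinib values lay below all control values, a pattern found in 9.28% of the 237 tested miRNAs (and its opposite in 18.1%). The difference was -0.45 (SE 0.11), 1.37-fold, and missed the threshold (limma, adjusted p = 0.093). The miRNA was well above background on all 6 arrays, so the filter did not choose its direction. Here as for every member, fewer cells of a type and less RNA per cell cannot be told apart in bulk tissue.

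miR-379-5p opens the Mirg group, whose deletion in mice is known to disturb energy metabolism around birth. Its probes map to chr12:110947281-110947295. Its signal was 3.74, 3.70 and 3.68 in control and 3.34, 3.54 and 3.11 in sunitinib, and the groups did not overlap. It was well above background on all 3 control arrays and on sunitinib 1 only. The difference was -0.38 (SE 0.11, adjusted p = 0.150 in limma). With arrays weighted by their quality, limma called miR-379-5p and miR-127-3p lower, with differences of -0.51 and -0.56 (adjusted p = 0.033 each). With normexp background correction and an added offset of 50 the differences were -0.04 and -0.08 (limma adjusted p = 0.975 and 0.969). Such an offset shrinks log2 differences of signals this dim, so these values do not test whether the differences hold. On the software's total gene signal, both turned positive. Of the alternatives run, 2 of 19 called miR-379-5p and 1 of 20 called miR-127-3p.

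miR-154-5p, also of the Mirg group, maps to chr12:110976651-110976669. It gave 3.80, 4.03 and 3.76 in control and 3.24, 3.74 and 3.46 in sunitinib, again without overlap, though sunitinib 2 nearly reached control 3. It was well above background on the 3 control arrays and on none of the sunitinib arrays. The fitted difference was -0.38 (SE 0.14, limma adjusted p = 0.243). For a bound, each sunitinib array took the higher of its dimmest flagged signal and the probe's own. On sunitinib 2 and 3 that was the probe's own. The means were then 3.86 in control and 3.51 in sunitinib, 1.28-fold apart. This bound leaves out the variation between samples, so it is no lower limit on a true difference.

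miR-494-3p maps to chr12:110953585-110953598. With miR-329-3p it is among the cluster members whose inhibition is known to promote vessel growth after ischaemia in mice. It gave 9.95, 9.67 and 9.88 in control and 9.05, 10.34 and 9.83 in sunitinib. The lowest and the highest value of all 6 were both in the sunitinib group, and the difference between groups was -0.09 (SE 0.31, adjusted p = 0.884 in limma). The spread itself stood out, with an SD of 0.654 in sunitinib and 0.149 in control. The sunitinib SD ranked 4 among the 237 tested miRNAs, whose median SD was 0.127 in sunitinib and 0.0784 in control. The gap between sunitinib 2 and sunitinib 1 was 1.30 on the brighter probe and 1.32 on the dimmer one, or 2.46-fold and 2.50-fold. Without sunitinib 1 the difference between groups was 0.25 in place of -0.09.

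miR-3072-5p, of the last hairpin along the chromosome, maps to chr12:110986113-110986124. It gave 3.96, 4.01 and 4.05 in control and 3.90, 4.10 and 3.96 in sunitinib. The groups overlapped, the difference was -0.02 (SE 0.07, limma adjusted p = 0.888), and its sign turned under several alternatives.

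**Figure D2:**
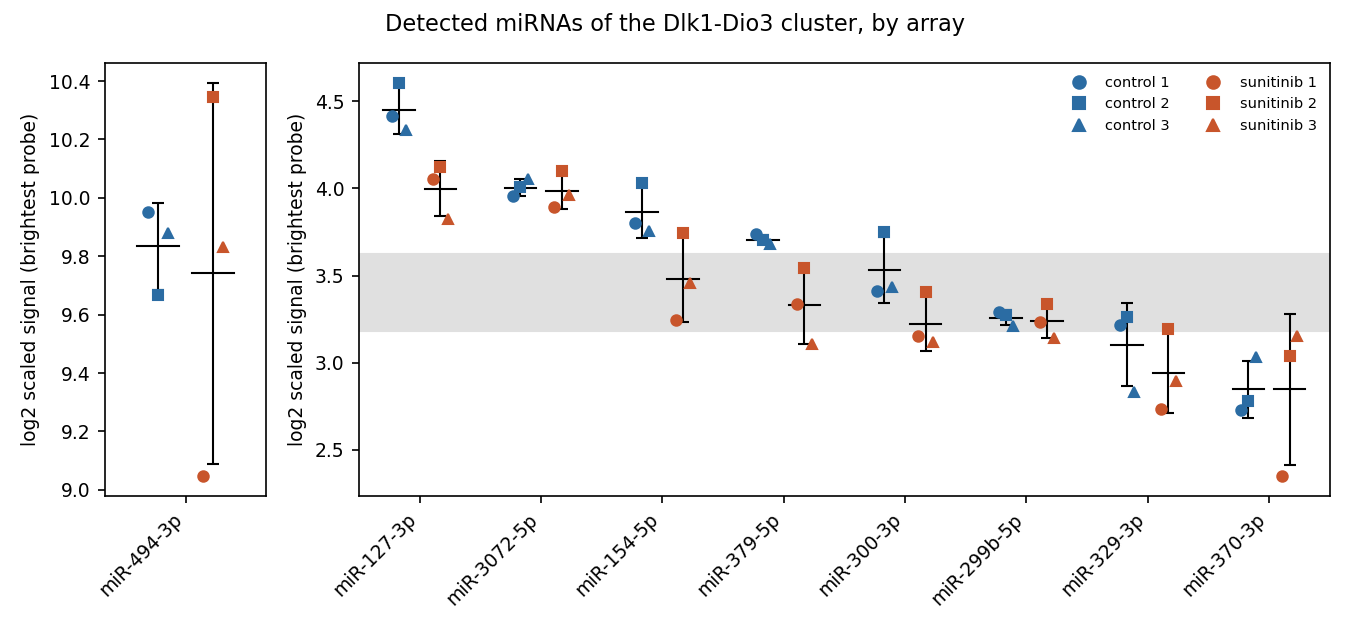
Log2 scaled signal of the brightest probe of the 9 detected miRNAs, with 1 point per array, black lines for the group mean and bars for the SD (n = 3). miR-494-3p has an axis of its own, neither axis starts at 0, and the grey band spans the dimmest flagged signals of the 6 arrays, 3.18 to 3.62.

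The other 4 detected miRNAs did not qualify for the test. miR-300-3p, of the Mirg group, gave 3.41, 3.75 and 3.43 in control and 3.15, 3.40 and 3.12 in sunitinib, a difference of -0.31 without overlap, and was well above background on control 2 only. miR-299b-5p gave 3.29, 3.27 and 3.21 against 3.24, 3.34 and 3.14, a difference of -0.02 with overlap. miR-329-3p gave 3.22, 3.26 and 2.83 against 2.73, 3.20 and 2.90, with overlap and a difference of -0.16. The last of them, miR-370-3p of the Rian group, is known to act on fatty acid oxidation in liver cells. It gave 2.73, 2.78 and 3.03 against 2.35, 3.04 and 3.15, so the groups overlapped and their means were equal to 2 decimals, 2.85 and 2.85.

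miR-362-3p, which shares the seed of miR-329-3p but lies outside the cluster, was tested as well. It gave 4.94, 5.14 and 5.03 in control and 4.69, 4.72 and 4.58 in sunitinib, a difference of -0.38 (SE 0.08) that missed the threshold (limma, adjusted p = 0.066).

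Each detected miRNA was read by 2 probes of 15 spots each, 1 base apart in length. The pairs of miR-379-5p and miR-494-3p are shown because the first pair disagreed most in size and the second agreed closely:

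miR-379-5p, brighter probe: cctacgttccatagtc
miR-379-5p, dimmer probe: cctacgttccatagt
miR-494-3p, brighter probe: gaggtttcccgtgt
miR-494-3p, dimmer probe: gaggtttcccgtgta

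In 8 of the 9 miRNAs the longer probe was the brighter, and miR-494-3p was the exception. The 2 probes differed between groups in the same direction in 7 of the 9. For miR-127-3p the brighter and the dimmer probe gave differences of -0.45 and -0.48, for miR-154-5p -0.38 and -0.36, and for miR-300-3p -0.31 and -0.35. The pair of miR-379-5p gave -0.38 and -1.03, the dimmer probe being well above background on no array. The exceptions in direction were miR-3072-5p, with -0.02 and 0.05, and miR-370-3p, with 0.00 and -0.24. Averaging all probes of a miRNA in place of the brightest took miR-379-5p to -0.71 (limma adjusted p = 0.043).

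**Figure D3:**
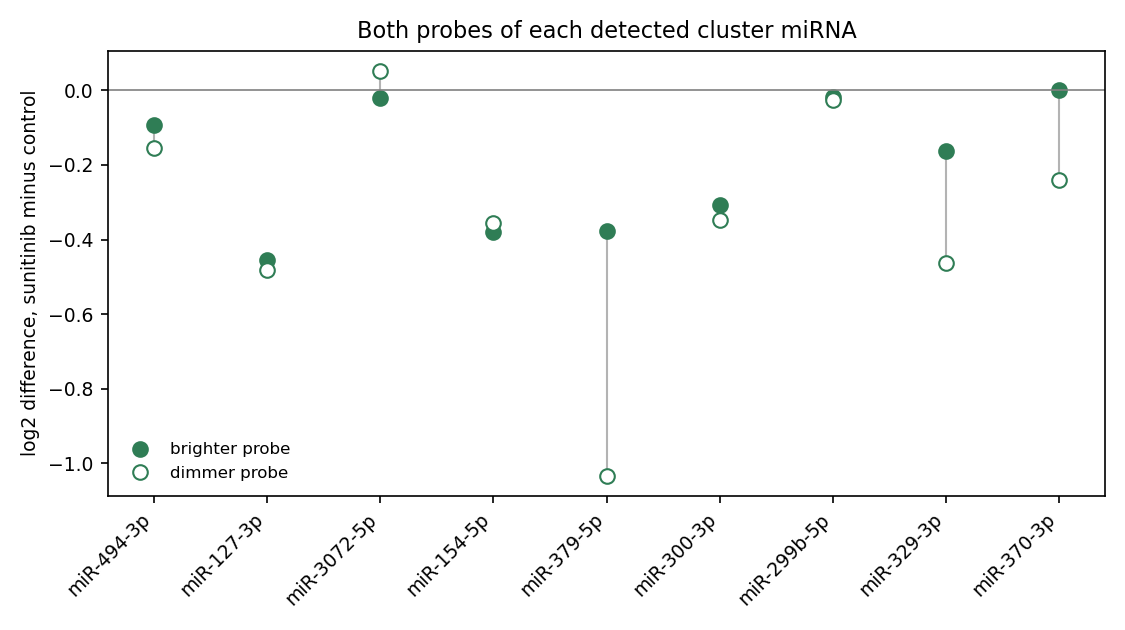
Log2 difference, sunitinib minus control, given by each of the 2 probes of the 9 detected miRNAs. Filled points are the brighter probe and open points the dimmer one, and the widest gap is that of miR-379-5p, from -0.38 to -1.03.

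The software also gives each miRNA a total gene signal, and for the cluster this quantity was not on 1 scale across arrays. On all 6 arrays a miRNA was called detected exactly where at least 1 of its probes had a total probe signal over 3 times its error. Where all probes passed, the total gene signal equalled the sum of the probe signals (within 1%). Only some probes passed in 85 to 96 of the detected miRNAs per array, and in 78 to 89 of these it lay above the sum. The median ratio was 4.49-fold to 6.42-fold per array. For undetected miRNAs it equalled its own error estimate, so the 71 undetected members per array carry no measurement in it.

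Among the members named above, the total moved with the number of probes that passed. The total of miR-154-5p was 5.45 and 5.71 on control 1 and 2, where both probes passed. It was 83.2 on control 3 and 105.5, 86.1 and 99.7 on the sunitinib arrays, where 1 probe passed. The sums of the same probe signals were 3.84 to 5.71 in control and 3.56 to 4.23 in sunitinib.

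miR-127-3p behaved alike, with both probes passing on control 2 only. Its total was 7.06 there, 34.9 and 27.6 on the other control arrays, and 29.0, 22.7 and 31.9 on the sunitinib arrays. For miR-379-5p 1 probe passed on each array, and its total of 822 to 1071 was 229-fold to 413-fold the sum of its probe signals. A comparison on total gene signal gave differences of 0.55 for miR-127-3p, 2.82 for miR-154-5p and 0.070 for miR-379-5p, opposite to those of the probes. The plain sums of probe signals, without scaling, gave -0.42, -0.36 and -0.54 in the same order, with overlapping groups. On the total, miR-300-3p, with 1 probe passing on each array, differed by 0.18, with sunitinib wholly above control. Its brighter probe gave -0.31, and its plain sum -0.31 with overlapping groups. For miR-494-3p both probes passed on all arrays and the total was the sum on each, 344, 265 and 254 in control and 181, 363 and 282 in sunitinib.

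The deposited value table gives all 79 miRNAs a log2 value, but nothing in the labels states its scale or centring. The column medians were 2.196, 2.195 and 2.196 for the controls, then 2.199, 2.200 and 2.196 for sunitinib. In that table miR-127-3p was 3.70, 3.89 and 3.55 against 3.52, 3.45 and 3.41, a difference of -0.25. miR-379-5p was 3.36, 3.28 and 3.15 against 3.12, 2.90 and 2.83, a difference of -0.31, and miR-300-3p differed by -0.22. In these 3 the groups did not overlap. For miR-154-5p they did, with 3.70, 3.73 and 3.41 against 3.31, 3.44 and 3.24 and a difference of -0.28. The spread of miR-494-3p was there as well, with 9.42, 9.14 and 9.36 against 8.48, 9.79 and 9.33.

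Over all 79 members, limma on the deposited values called none after adjustment over all 1881 miRNAs, of which 0.159% were called lower and 0% higher. The smallest adjusted p of a member was 0.112. Without adjustment, 10 members were lower and 4 higher at a p under 0.05, against backgrounds of 4.09% and 5.1%. The sunitinib values lay wholly below control in 10 members (12.7%) and wholly above in 4 (5.06%), where 6.96% and 7.12% of all miRNAs did so. A negative difference was found in 56 of the 79 (70.9%) and in 50.8% of all miRNAs. The differences ran from -0.31 to 0.23, with a median of -0.02, and the median over all miRNAs was -0.00075.

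The scanner values of all 79, without a filter, gave 14 members wholly below control (17.7%) and 2 above (2.53%), where the whole array had 5.9% and 7.28%. At an unadjusted p under 0.05, 11 were lower and 1 higher, against 3.83% and 3.83% of all miRNAs. A negative difference was found in 53 of the 79 (67.1%) and in 49.2% of all miRNAs. The median difference was -0.08 against 0.0036 for all miRNAs. It was 0.020 with normexp background correction, where the median over all miRNAs was 0.029, and 0 with signals floored at 4. The normexp offset of 50 shrinks differences of dim signals, and the floor sets the dimmest signals to the same value. Neither setting therefore tests the median of -0.08. By array, the members' median deviation from the control mean was -0.06, 0.02 and 0.05 in control and -0.14, -0.01 and -0.12 in sunitinib. Sunitinib 2 lay within the control range on this measure. The members share transcripts and in part sequence, so they are not independent of each other.

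Differences below 0 occurred in each of the name lists. The median differences were -0.09 for the 14 members listed with antisense Rtl1, with 10 below 0. That list includes the 2 miR-3071 arms, which map to the other strand. The medians were -0.11 for the 6 listed with Rian, with 4 below 0, and -0.08 for the 56 listed with Mirg, with 38 below 0. For the 2 on the Meg3 side the median was -0.01, with 1 below 0. Before and after the gap in the cluster the medians were -0.09 and -0.07.

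**Figure D4:**
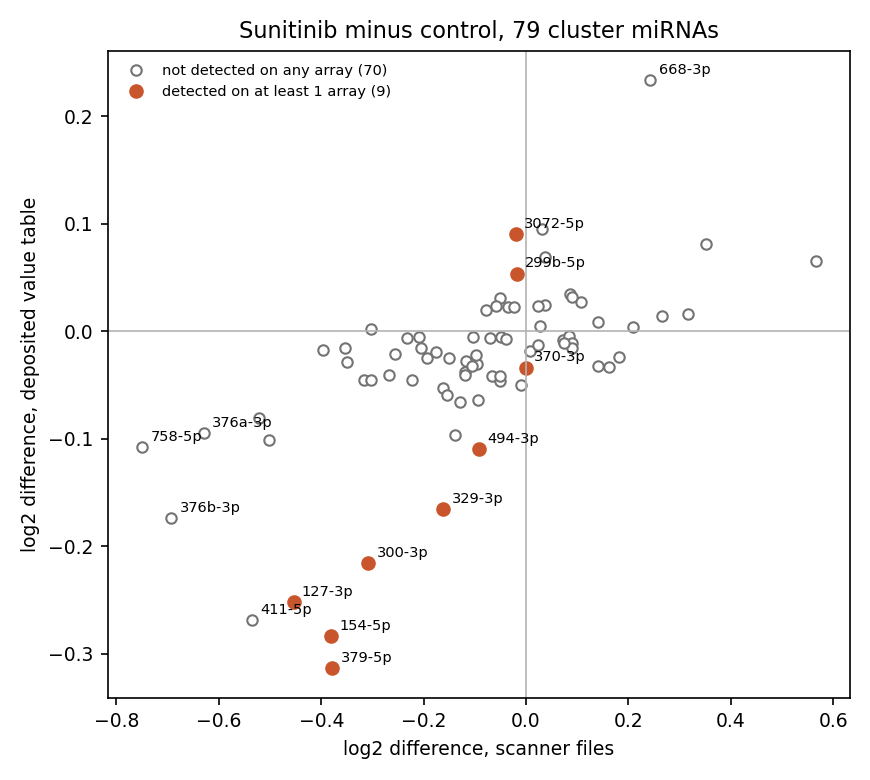
Log2 difference, sunitinib minus control, of each of the 79 miRNAs in the scanner values (horizontal) and in the deposited table (vertical), both from the same 6 arrays. Filled points are the 9 detected miRNAs, and the deposited differences run from -0.31 to 0.23, a narrower range than the scanner differences of -0.75 to 0.57.

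The 70 undetected miRNAs had scanner signals of 0 to 2.77 and deposited values of 2.01 to 2.87, so what follows concerns signal at background. The 6 with the smallest unadjusted p in the deposited table are named by that rule. miR-411-5p, whose seed is 1 base from that of miR-379-5p, was 2.75, 2.87 and 2.78 against 2.62, 2.47 and 2.52, a difference of -0.27 (limma adjusted p = 0.112). miR-668-3p went the other way, with 2.41, 2.51 and 2.36 against 2.67, 2.62 and 2.69, a difference of 0.23 (limma adjusted p = 0.112). Their scanner differences were -0.54 and 0.24, also without overlap.

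The miR-376 family, known for A-to-I editing within its seed, supplied 3 of the 6. miR-376b-3p and miR-376a-3p differed by -0.17 and -0.09 in the deposited values and by -0.69 and -0.63 in the scanner values, below control on all sunitinib arrays in both. miR-376c-5p differed by 0.09 in the deposited values, but by 0.03 with overlap in the scanner values. Adjusted p-values of the 3 were 0.112, 0.351 and 0.254 (limma, deposited values).

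miR-758-5p was the sixth. Its deposited difference was -0.11 (limma adjusted p = 0.407). In the unfiltered scanner values it was 0.76, 0.86 and 0.90 in control and 0.06, 0.12 and 0.09 in sunitinib, and it passed that unfiltered fit (difference -0.75, limma adjusted p = 0.032), as did 0.159% of all miRNAs in that direction. It was neither detected nor well above background on any array, so the value compares signals at background.

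Markers of cell types in the tissue were read on the same arrays. The 4 heart muscle markers were all tested and none passed, and miR-1a-3p, the main miRNA of heart muscle, was at 15.93 in control and 15.99 in sunitinib. Of the 4 leukocyte markers 2 fell, miR-223-3p by 1.32 and miR-142a-3p by 0.64 (limma adjusted p = 0.00086 and 0.020), while miR-150-5p and miR-155-5p differed by 0.35 and 0.15 without passing (limma adjusted p = 0.359 and 0.246). The summed signal of the leukocyte markers, of which miR-223-3p was the brightest in control, was 9.30 to 9.45 in control and 8.72 to 8.96 in sunitinib. Such sums depend on how well each probe binds, so they are not amounts. The part of leukocytes in the cluster's values was not tested. The 3 fibroblast markers did not pass, with sums of 10.3 to 10.5 and 10.2 to 10.4. Nor did the 2 endothelial, 2 smooth muscle and 3 erythroid markers. Of the 4 neuron markers only miR-128-3p was tested, and it did not pass. miR-124-3p, miR-9-5p and miR-138-5p of neurons, miR-122-5p of liver and miR-206-3p of skeletal muscle were detected on no array.

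miRNAs of other imprinted loci gave 2 tested members of 10 on the array, and neither passed. miR-335-5p, within Mest, differed by 0.04 and miR-296-5p, near Gnas, by 0.18 (limma adjusted p = 0.776 and 0.407).

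All 6 arrays were on 1 slide, by the array positions in the files, with the 3 control samples and sunitinib 3 in row 2 and the other sunitinib samples in row 1. Within row 2 the differences of sunitinib 3 from the control mean were -0.63 for miR-127-3p, -0.60 for miR-379-5p, -0.41 for miR-154-5p, -0.04 for miR-3072-5p and -0.0023 for miR-494-3p. With slide row as a block, limma gave these differences adjusted p-values of 0.246, 0.206, 0.7003, 0.925 and 0.9997, with the spread taken from the 2 rows together. The 2 sunitinib samples of row 1 differed from the control mean by -0.37 for miR-127-3p, -0.27 for miR-379-5p and -0.37 for miR-154-5p. For miR-154-5p normexp background correction gave -0.05 in place of -0.38, but its offset of 50 shrinks differences of dim signals.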

How the data were processed

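The deposited scanner files hold spot intensity on a linear scale, background-subtracted by Agilent Feature Extraction 10.7.1.1 with genome build mm9, per the file headers (version 10.7 per the submitters' processing notes). A deposited table has log2 values processed by the authors, with no method stated. Groups came from the sample titles. Control spots and spots flagged as outliers were left out. The members and lists were chosen with earlier results of these data known. Each array's signal was scaled by its 75th percentile over 393 probes well above background on all arrays, given a floor of 1, and averaged per probe as log2. Each miRNA is represented by its brightest probe. A probe was well above background where at least 50% of its spots were. limma 3.58.1 in R 4.3.3 (lmFit, eBayes) with Benjamini-Hochberg adjustment at 0.05 was tested on simulated data first. Members detected or well above background on any array are named, as are the 6 undetected ones with the smallest deposited p. A bound takes, per array, the higher of the dimmest flagged signal and the probe's own. The number of arrays limits the precision, and no spot was saturated. Alternatives cover scaling, background, probes, filter, block and left-out samples.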

Additional observations from a re-analysis of the deposited data

How the results depend on the processing

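No member passed the threshold in the main analysis or without any 1 sample (0 in each). The count was 1 with the mean of all probes (miR-379-5p at -0.71), 1 with no filter and 2 with array weights (miR-127-3p at -0.56 and miR-379-5p at -0.51, limma adjusted p = 0.033 each). On total gene signal the differences turned to 0.55 for miR-127-3p, 2.82 for miR-154-5p and 0.070 for miR-379-5p. In the first 2 the number of probes behind the total differed between arrays, and for miR-379-5p the cause was not tested. miR-300-3p, which the main test left out, turned from -0.31 to 0.18, and the cause was not tested there either. miR-3072-5p turned to 0.016 (normexp), 0.0050 (75th percentile over all probes), 0.034 (quantile), 0.016 (mean of probes) and 0.090 (deposited table). Without 1 sample in turn the ranges were -0.52 to -0.37 for miR-127-3p, -0.51 to -0.26 for miR-154-5p, -0.49 to -0.27 for miR-379-5p, -0.076 to 0.025 for miR-3072-5p and -0.39 to 0.25 for miR-494-3p. The members' unfiltered median of -0.08 became 0.020 with normexp and 0 with total gene signal or a floor of 4, and ran from -0.12 to -0.06 without 1 sample. The normexp offset of 50 shrinks differences of dim signals. The total gene signal and the floor held undetected or dim members at the same value, so these settings do not test the median. The difference in members per array was 0 by detection and -2 by the background flag, by either probe rule or a common level. Over all tested miRNAs, 4 higher and 4 lower became 2 and 2 with normexp, 0 higher with quantile scaling, 1 higher with no scaling, 7 higher and 2 lower with total gene signal, 7 lower with the mean of all probes, 7 lower with array weights, 0 higher with no filter, and 0 higher and 1 lower with slide row as a block. Without 1 sample they were 0 to 5 higher and 2 to 3 lower. The replicate numbers did not pair the samples (correlations of deviations 0.18, 0.22 and -0.06). The replicate block gave 0 higher and 2 lower, changed no member's call and left miR-127-3p at an adjusted p of 0.151 (limma). Other causes were not tested. Signal near background limits what the 70 undetected members can show.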

Other observations

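The place lists of the cluster named 29 further miRNAs on the array that were outside the mapped window, 28 of them without a mapped position. Only miR-434-3p among them was detected, on 4 of the 6 arrays (control 1 and 2, sunitinib 1 and 3). In the deposited table it was 3.05, 3.17 and 2.82 in control and 3.03, 2.88 and 3.02 in sunitinib, a difference of -0.04 with overlapping groups.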
